A study of Arabidopsis thaliana with 18 samples.

Results

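BIK1 and EFR are the cytoplasmic kinase and the cell-surface receptor of one branch of pattern-triggered immunity in Arabidopsis thaliana, and their mRNA levels were followed over all 18 arrays of a salicylic acid (SA) experiment. They were named by gene, with earlier results of these data known. BIK1 (AT2G39660) and EFR (AT5G20480) are each read by 1 probe set, and they are 2 of 13350 genes that the array annotation used here assigns a probe set of their own.

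All plants were of the accession Cvi-1, a natural strain, and each sample was put on 1 Affymetrix ATH1 array. The SA group holds 9 arrays from plants given SA at 0.30 mM together with the organosilicone surfactant silwet at 0.02%. The silwet group holds 9 arrays from plants given the surfactant alone, also at 0.02%, so both groups carry it. The titles number the arrays 28 to 36 for SA and 19 to 27 for silwet, and give replicate numbers 1 to 3 that recur in runs of 3. These runs are called serial blocks here. Block 1 is arrays 28 to 30 (SA) and 19 to 21 (silwet), block 2 is arrays 31 to 33 and 22 to 24, and block 3 is arrays 34 to 36 and 25 to 27. The sources used here do not give what a block or a replicate number stands for, nor the tissue, the age of the plants or the time of harvest. Separate plants or cultures behind the arrays are not stated either. The p-values therefore reflect only how these samples vary, and that variation may be technical.

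EFR is a leucine-rich repeat receptor kinase that binds a peptide of the bacterial elongation factor EF-Tu and then pairs with the co-receptor BAK1. BIK1 is a receptor-like cytoplasmic kinase that waits at several such receptor complexes, is phosphorylated when they are activated, and passes the signal to the oxidase RBOHD and to calcium channels. SA is the hormone of defence against biotrophic pathogens, and pattern recognition and SA signalling are known to reinforce each other.

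Arrays 20 (silwet) and 29 (SA), both numbered 2 in block 1, ran against the other block 1 arrays of their treatment for many genes. Across probe sets their deviations from the means of their own groups had a correlation of -0.697, and UGT76B1, an SA-responsive glucosyltransferase gene, had 1540 in silwet array 20 and 41.2 in SA array 29. Whether these arrays carry the right label cannot be settled from the files. Each SA minus silwet value and each block difference within a treatment takes them as labelled, and the values of BIK1 and EFR without them are given beside the results.

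BIK1 was not distinguishable between SA and silwet arrays. With all arrays it was called higher in serial block 1 than in blocks 2 and 3 under both treatments. The call stood in 28 of 31 other settings in SA arrays, but in only 20 of 31 in silwet arrays. EFR was not distinguishable between treatments, between blocks or between replicate numbers. Within block 1 the signals of both genes went up and down together from array to array, and the arrays at the top, 28 and 30 (SA) and 20 (silwet), came from both treatments. These were also the arrays with the lowest 3′ to 5′ ratios of ubiquitin, whose values are given with the other measures of array quality.

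In block 1, BIK1 had signals of 245, 194 and 355 in SA arrays 28, 29 and 30, against 162, 324 and 211 in silwet arrays 19, 20 and 21. In block 2 it had 93.8, 109 and 109 in SA arrays 31, 32 and 33, against 123, 99.9 and 116 in silwet arrays 22, 23 and 24. In block 3 it had 101, 96.7 and 92.0 in SA arrays 34, 35 and 36, against 101, 119 and 90.7 in silwet arrays 25, 26 and 27. The 6 arrays of block 1 (162 to 355) lay above all 12 arrays of blocks 2 and 3 (90.7 to 123), with no overlap. In the order of all 18 arrays, array 30 (SA) came first, then 20 (silwet), 28 (SA), 21 (silwet), 29 (SA) and 19 (silwet), so the treatments alternated. The other 12 arrays averaged 104 ± 10.8 (SD), and neighbours in their order differed by less than that spread.

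EFR gave signals of 54.9, 25.2 and 56.1 in SA arrays 28, 29 and 30 of block 1, against 23.8, 50.9 and 36.5 in silwet arrays 19, 20 and 21. In block 2 it gave 30.0, 47.6 and 35.9 in the SA arrays, against 29.9, 46.8 and 49.3 in the silwet arrays. In block 3 it gave 32.8, 41.8 and 43.7 in the SA arrays, against 34.7, 40.3 and 48.9 in the silwet arrays. The highest 3 of the 18 values (arrays 30, 28 and 20) and the lowest pair (arrays 19 and 29) all lay in block 1, while the groups overlapped throughout. The level itself did not mark block 1, with means of 41.2 ± 14.7 in block 1 and 40.1 ± 7.31 in blocks 2 and 3 (SD, n = 6 and 12). The EFR probe set had a mean log2 signal at the 51.6th percentile of all non-control probe sets and that of BIK1 at the 78.3rd percentile, and MAS5 signal is noisier where it is dimmer. Signals of different probe sets are not comparable as amounts of mRNA.

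**Figure D1:**
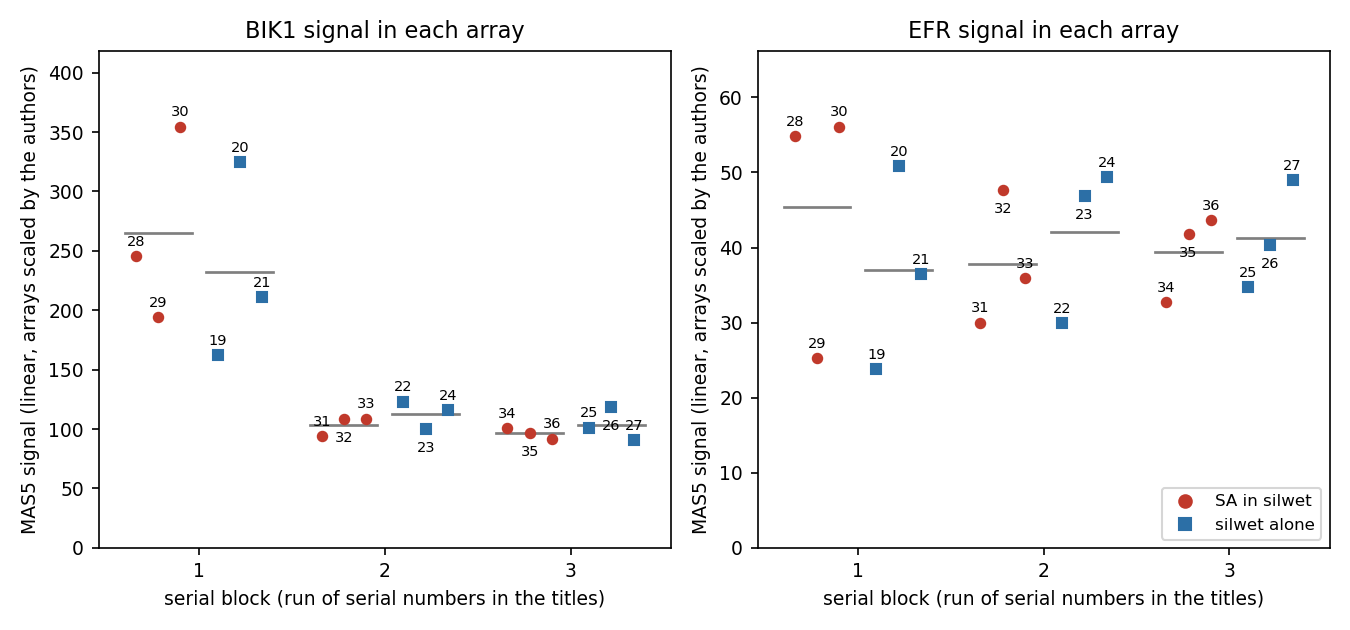
MAS5 signal (linear axes) of BIK1 (left) and EFR (right) in each array, by serial block, with SA arrays as red circles, silwet arrays as blue squares, serial numbers beside the points and grey lines at the means of 3 arrays. BIK1 is at 162 to 355 in block 1 and 90.7 to 123 in blocks 2 and 3, while EFR spans 23.8 to 56.1 in block 1 and overlaps the other blocks.

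The first question was whether SA changed the mRNA of either gene. Differences are in log2 signal from limma, fitted over all tested probe sets with the 6 groups of treatment and serial block, and each p-value is adjusted by Benjamini-Hochberg over 13648 tested probe sets, with a call at an adjusted p under 0.05. BIK1 averaged 155 ± 92.1 in SA arrays and 150 ± 75.5 in silwet arrays (SD, n = 9 each), and its SA minus silwet difference was -0.00466 (SE 0.139, 95% interval -0.298 to 0.289, limma adjusted p = 1). EFR averaged 40.9 ± 10.8 in SA arrays and 40.1 ± 9.59 in silwet arrays (SD, n = 9 each), and its difference was 0.02 (SE 0.192, 95% interval -0.385 to 0.427, limma adjusted p = 1). The intervals leave room for a change of up to 1.22-fold for BIK1 and 1.34-fold for EFR in favour of SA. Without arrays 20 and 29 the differences were 0.15 for BIK1 (95% interval -0.0816 to 0.386, limma adjusted p = 0.547) and 0.23 for EFR (95% interval -0.100 to 0.570, limma adjusted p = 0.518). The same fit called 0 of the 13648 probe sets, which is 0% (106 had an unadjusted p under 0.05), so neither gene stands apart from the rest in this comparison. Genes that SA is known to induce were among those with no call, GRX480 and UGT76B1 included.

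Within the blocks the SA difference of BIK1 was 0.20 (SE 0.240, 95% interval -0.305 to 0.711) in block 1, -0.12 (95% interval -0.630 to 0.386) in block 2 and -0.0946 (95% interval -0.603 to 0.413) in block 3. That of EFR was 0.27 (SE 0.332, 95% interval -0.432 to 0.975), -0.14 (95% interval -0.847 to 0.559) and -0.0648 (95% interval -0.768 to 0.639) in the same order. None was called (limma adjusted p = 1 for each), and 0% of all probe sets were called in any of the 3 blocks (121, 56 and 337 had an unadjusted p under 0.05 in blocks 1, 2 and 3). The test of whether the SA difference varied between the blocks gave an unadjusted p of 0.580 for BIK1 and 0.651 for EFR (limma adjusted p = 1 for both), with 0% of probe sets called.

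The block 1 averages hide pairs that ran in opposite directions. With SA and silwet arrays set side by side by replicate number, BIK1 differed by 0.60, -0.74 and 0.75 in block 1 (numbers 1, 2 and 3), and EFR by 1.20, -1.01 and 0.62. In block 2 the same differences were -0.39, 0.12 and -0.09 for BIK1 and 0.00, 0.02 and -0.46 for EFR, and in block 3 they were -0.01, -0.30 and 0.02 for BIK1 and -0.08, 0.05 and -0.17 for EFR. In block 1 the SA array was thus above its silwet counterpart for numbers 1 and 3 and below it for number 2 (array 29 against array 20), for both genes. Replicate numbers are not part of the main fit. The deviations of same-numbered arrays were positively correlated in every pair of blocks 2 and 3, but not in every pair of block 1.

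Because array 20 was among the highest and array 29 among the lowest of block 1, the block 1 comparison depended on that pair. Without replicate number 2 in every block and treatment, the SA minus silwet difference in block 1 was 0.67 for BIK1 (95% interval 0.146 to 1.20, limma adjusted p = 0.104) and 0.91 for EFR (95% interval 0.167 to 1.66, limma adjusted p = 0.117). In that fit 1129 probe sets were called, which is 8.27%, against 0 with all arrays. Without arrays 20 and 29 alone, BIK1 differed by 0.67 (95% interval 0.214 to 1.13, limma adjusted p = 0.0472) and EFR by 0.91 (95% interval 0.255 to 1.57, limma adjusted p = 0.0591), and 15.2% of probe sets were called. These arrays had been singled out in earlier results by their levels, so a larger difference without them follows from the choice and is not independent support for an effect of SA. Over all settings the adjusted p of this difference ran from 0.0472 to 1 for BIK1, with 1 call in 32 settings.

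**Figure D2:**
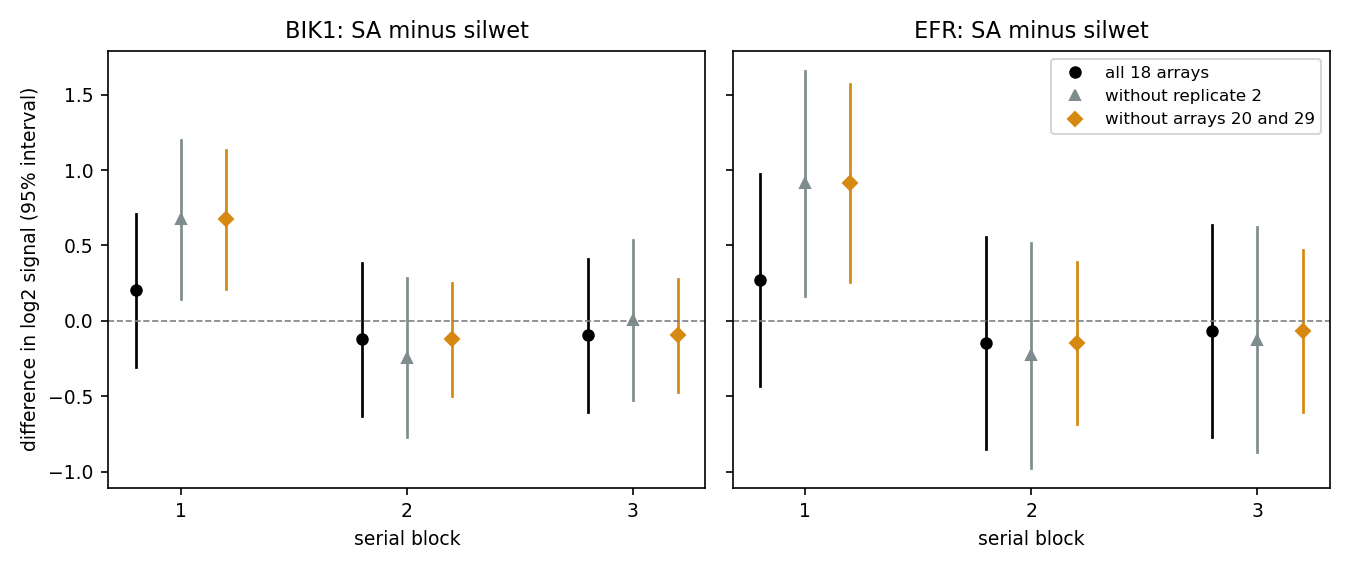
SA minus silwet difference in log2 signal with its 95% interval, for BIK1 (left) and EFR (right) in each serial block, with all 18 arrays, without replicate number 2 and without arrays 20 and 29. In block 1 the difference is 0.20 for BIK1 and 0.27 for EFR with all arrays, and 0.67 and 0.91 under either omission, while all intervals of blocks 2 and 3 include 0.

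The second comparison set serial block 1 against blocks 2 and 3 within each treatment. It used the same shared spread, which is smaller than that of BIK1 or EFR within block 1. In SA arrays, BIK1 averaged 265 ± 81.9 in block 1 (SD, n = 3) and 100.1 ± 7.29 in blocks 2 and 3 (SD, n = 6). The difference was 1.36 (SE 0.208, 95% interval 0.922 to 1.80), or 2.57-fold, with a limma adjusted p of 0.00214. In silwet arrays, BIK1 averaged 232 ± 83.3 in block 1 (SD, n = 3) and 108 ± 12.8 in blocks 2 and 3 (SD, n = 6). That difference was 1.05 (SE 0.208, 95% interval 0.611 to 1.49), or 2.07-fold, with a limma adjusted p of 0.0273. With all arrays, BIK1 was therefore called higher in block 1 whichever treatment the label gives. Without arrays 20 and 29 the differences were 1.56 in SA arrays (limma adjusted p = 4.7e-05) and 0.78 in silwet arrays (limma adjusted p = 0.104).

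These calls stand against a wide background in SA arrays and a narrow one in silwet arrays. In SA arrays 1640 of the 13648 probe sets were called, which is 12% (5.83% higher and 6.19% lower in block 1), and in silwet arrays 84 were called, which is 0.615% (0.469% higher and 0.147% lower). The count in SA arrays was 4301 without array 29, 507 without array 28, 103 without array 30, 991 without array 31 and 771 without array 33. That in silwet arrays was 14 without array 20, 31 without array 21, 176 without array 19, 134 without array 29 and 45 to 54 without array 22, 23, 24, 26 or 27. The complete separation of the 6 arrays of block 1 above the other 12 was shared by 150 probe sets, which is 1.1%. The BIK1 call in silwet arrays was lost without array 20, with a difference of 0.78 (limma adjusted p = 0.270), without array 21, 23, 24, 25 or 27 (limma adjusted p from 0.0566 to 0.0940) and without any of the 3 replicate numbers (limma adjusted p from 0.0808 to 0.491). In SA arrays it was lost without replicate number 1 (1.37, limma adjusted p = 0.0534), without number 3 (1.13, limma adjusted p = 0.270), and without arrays 20, 28 and 30 (0.96, limma adjusted p = 0.104), while the direction stayed the same in all 31 settings.

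No block difference was called for EFR in either treatment. In SA arrays it averaged 45.4 ± 17.5 in block 1 (SD, n = 3) and 38.6 ± 6.83 in blocks 2 and 3 (SD, n = 6), a difference of 0.16 (SE 0.288, 95% interval -0.446 to 0.772, limma adjusted p = 0.727). In silwet arrays it averaged 37.0 ± 13.5 in block 1 (SD, n = 3) and 41.7 ± 8.08 in blocks 2 and 3 (SD, n = 6), a difference of -0.21 (SE 0.288, 95% interval -0.822 to 0.396, limma adjusted p = 0.804). Without arrays 20 and 29 the differences were 0.54 in SA arrays (limma adjusted p = 0.108) and -0.48 in silwet arrays (limma adjusted p = 0.862). With all arrays the upper bounds, 1.71-fold in SA arrays and 1.32-fold in silwet arrays, lie below the fold changes fitted for BIK1. They rest on the shared spread, which is smaller than that of EFR within block 1. There its log2 signal had an SD of 0.657 in SA arrays and 0.549 in silwet arrays (n = 3 each). The bounds therefore do not set EFR apart from BIK1, and the difference between the 2 genes was not tested.

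No difference between blocks 2 and 3 was called for either gene. Block 3 minus block 2 was -0.12 for BIK1 (SE 0.170, 95% interval -0.475 to 0.243) and 0.03 for EFR (SE 0.235, 95% interval -0.462 to 0.532), with a limma adjusted p of 1 for both and 0% of probe sets called (495 had an unadjusted p under 0.05).

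Measures of array quality overlapped between block 1 and the other blocks, but some of them moved with BIK1 and EFR within block 1. The ratio of 3′ to 5′ probe sets of ubiquitin was 1.25 to 1.93 in block 1 and 1.45 to 2.23 in blocks 2 and 3, and that of GAPDH was 0.862 to 1.05 in block 1 and 0.857 to 1.01 in blocks 2 and 3. The median signal of an array was 33.1 to 38.7 in block 1 and 31.7 to 37.9 in blocks 2 and 3.

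Within block 1 the ubiquitin ratio was 1.41, 1.67 and 1.34 in SA arrays 28, 29 and 30, against 1.93, 1.25 and 1.67 in silwet arrays 19, 20 and 21. Arrays 20, 30 and 28, the highest 3 for BIK1 and EFR, thus had the lowest 3 ubiquitin ratios of all 18. The median signal was 34.6, 35.8 and 33.1 in the SA arrays, against 36.2, 33.3 and 38.7 in the silwet arrays, and was lowest in the same 3 arrays of block 1. Signals below 16 made up 38.4%, 36.2% and 37.5% of probe sets in the SA arrays, against 35.7%, 37.7% and 34.7% in the silwet arrays, most in those 3. The part of these measures in the values of BIK1 and EFR was not tested.

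Of 13 marker genes listed for green leaf, root and other tissues, 4 had a probe set of their own in the annotation used here. The green leaf markers LHCB4.1, a chlorophyll-binding antenna protein, and RCA, the activase of Rubisco, had signals of 2527 to 3576 and 2171 to 3247 in block 1, against 2430 to 3487 and 1760 to 2994 in blocks 2 and 3. The root hair expansins EXPA7 and EXPA18 gave at most 12.6 in block 1 and 16.3 in blocks 2 and 3, below the signal of 19.9 at which a probe set was tested. In RNA from bulk samples, fewer cells of a type and less mRNA per cell cannot be told apart.

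Replicate numbers were the third grouping in the titles. For EFR the array numbered 1 had the lowest signal of its 3 in both treatments of blocks 2 and 3 and in silwet block 1, and the exception was SA block 1, where array 29 (number 2) was lowest. In blocks 2 and 3 EFR averaged 31.8 ± 2.32, 44.1 ± 3.61 and 44.5 ± 6.28 for numbers 1, 2 and 3 (SD, n = 4 each). Those 4 arrays numbered 1 reached at most 34.7, and the 8 others lay at 35.9 or above, so they did not overlap. That split was chosen after the values were seen, and 477 of the 13648 tested probe sets, or 3.5%, separated the same way. Over all 18 arrays the test across replicate numbers gave EFR an unadjusted p of 0.171 (limma adjusted p = 0.434), whereas 699 probe sets, or 5.12%, were called (175 to 1217 with 1 array left out). BIK1 averaged 105 ± 12.8, 106 ± 9.85 and 102 ± 12.5 for numbers 1, 2 and 3 in blocks 2 and 3 (SD, n = 4 each), with a limma adjusted p of 0.867 over all 18 arrays.

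**Figure D3:**
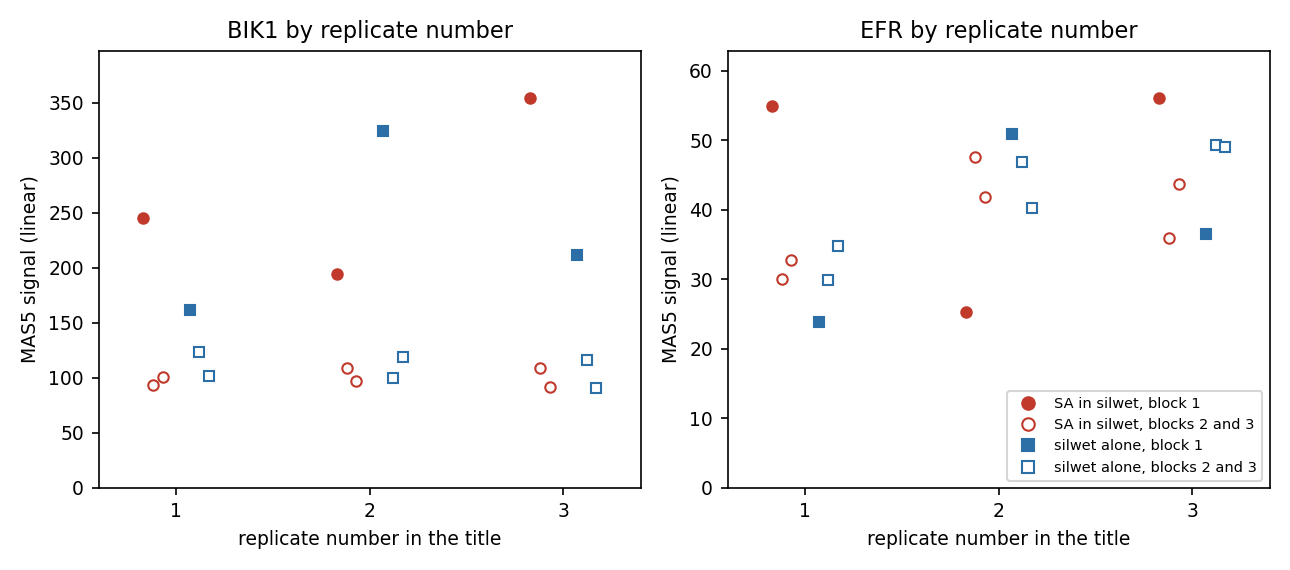
MAS5 signal (linear axes) of BIK1 (left) and EFR (right) by the replicate number in the title, with SA as red circles, silwet as blue squares, block 1 filled and blocks 2 and 3 open. In blocks 2 and 3 the EFR signals of number 1 (29.9 to 34.7) lie below those of numbers 2 and 3 (35.9 to 49.3), while BIK1 shows no such order.

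BIK1 and EFR were correlated across the arrays of block 1, and no correlation was detected across those of blocks 2 and 3. Across the 6 arrays of block 1 the log2 signals had a Pearson r of 0.889 (exact permutation p = 0.0139, adjusted p = 0.0333) and a Spearman rho of 0.943 (exact permutation p = 0.0167, adjusted p = 0.0333), adjusted over 4 correlations. Without arrays 20 and 30, the farthest from the median of BIK1, r was 0.927 over 4 arrays, a value given as a description without a test. The ubiquitin ratio, the median signal and the share of low signals, given above, followed the same arrays, and their part in this correlation was not tested. The share of all tested probe sets that follow BIK1 as closely in block 1 is not given here. Other genes, UGT76B1 and GRX480 among them, were highest in the same block 1 arrays as BIK1 and EFR. The block 1 correlation is therefore not shown to be particular to this pair. The pair was also named with earlier results of these data known. Its p-values thus describe these 6 arrays and are not independent support for a link between the genes. Across the 12 arrays of blocks 2 and 3, r was -0.146 (permutation p = 0.642) and rho was -0.224 (permutation p = 0.483), and without arrays 22 and 26 r was 0.169. No r over all 18 arrays is given, because the blocks form separate clusters in BIK1. Whether the correlation differed between the blocks was not tested.

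**Figure D4:**
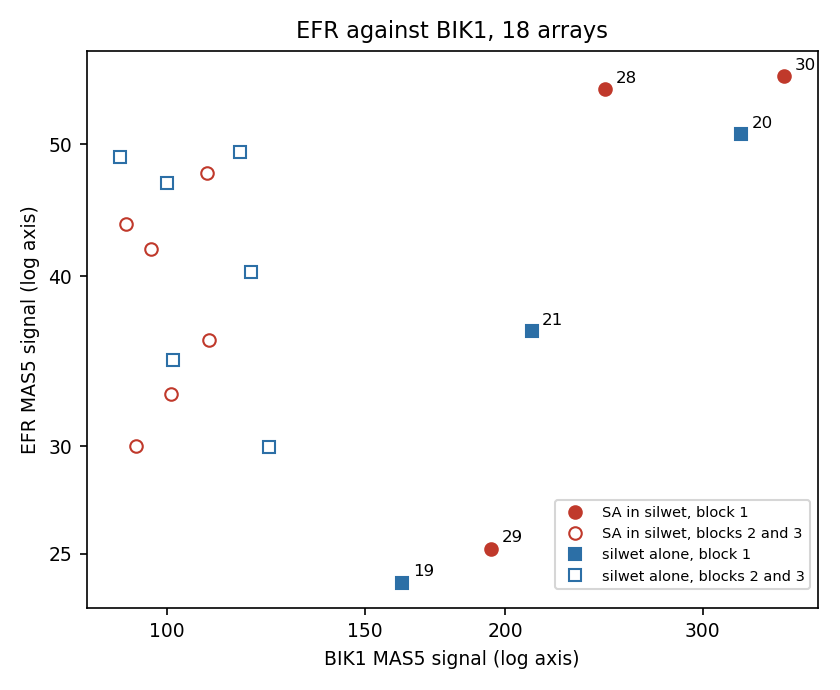
EFR against BIK1 MAS5 signal in the 18 arrays (both axes logarithmic), with SA as red circles, silwet as blue squares, block 1 filled with serial numbers and blocks 2 and 3 open. The 6 arrays of block 1 run from array 19 (162 and 23.8) to array 30 (355 and 56.1), and the other 12 form a cloud at BIK1 signals of 90.7 to 123.

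Pathway genes around the 2 members were taken from 9 lists with 134 genes, of which 27 had their own probe set and 23 of these passed the signal filter, BIK1 and EFR included. The lists of the oxidative burst and calcium channels and of the MAP kinase cascade had 0 members with such a probe set in the annotation used here. That annotation leaves 8730 of the 22746 non-control probe sets unlisted. Listed genes without a probe set of their own may thus be on the array, and were not examined. In SA minus silwet over all blocks, 0 of the 23 were called, with a median difference of 0.05 against -0.02 over all tested probe sets. In block 1 minus blocks 2 and 3, 10 of the 23 rose and 0 fell in SA arrays (background 5.83% higher and 6.19% lower). Their median was 0.98, against -0.09 over all tested probe sets. In silwet arrays 3 of the 23 rose and 0 fell (background 0.469% higher and 0.147% lower), with a median of 0.63 against -0.06. These 3 were BIK1, PUB23 and AT1G26380, and they were also the 3 of 23 whose 6 arrays of block 1 lay above all 12 others (background 1.1%). The members share arrays and were listed with earlier results known, so the counts describe the list and test nothing about it. The counts over all 13648 probe sets, in either direction, moved widely too and are given in brackets. The list count in SA arrays was 16 without array 29 (4301), 4 without array 28 (507) and 2 without array 30 (103), namely BIK1 and PUB23. It was also 16 without array 20. In silwet arrays the list count was 1 without array 20 (14), 21 (31), 23 (45), 24 (45) or 27 (54). Without arrays 20, 28 and 30 together, the list count was 1 in SA arrays (background 0.103% higher) and 0 in silwet arrays (background 0.117% higher).

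The calls of BIK1 and PUB23 in SA arrays and of PUB23 in silwet arrays stood whichever single array was left out. The other 8 calls in SA arrays were lost without array 30 (limma adjusted p from 0.0535 to 0.225), and those of AT3G09830, PUB24, ATERDJ3B, WRKY53, UGT76B1 and GRX480 also without array 28 (limma adjusted p from 0.0660 to 0.151). AT3G09830 lost its call without array 31, 33 or 36 as well, and GRX480 without array 31 or 33. In silwet arrays AT1G26380 lost its call without array 20, 21, 22, 23, 24, 26, 27 or 33 (limma adjusted p from 0.0584 to 0.302).

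Calls in SA arrays were gained as well. Without array 29, APK1A, AT5G47070, AT1G76360, AT5G03320, AT3G12620 and STZ were called (limma adjusted p from 0.00213 to 0.0309). Without array 20, AT5G47070, AT1G76360, AT5G03320, AT3G12620, CRT1b and STZ were (limma adjusted p from 0.0257 to 0.0428). Leaving out that silwet array kept their differences in SA arrays as in the main fit and changed only the shared spread. CRT1b was also called without array 32 or 35 (limma adjusted p = 0.0379 and 0.0248), after quantile normalization (0.0429), after median centring (0.0433), at a filter of the 60th percentile (0.0485) and with the replicate number as a block (0.0329). AT1G76360 was also called without array 35, STZ without array 19 and AT5G03320 without array 21 (limma adjusted p = 0.0424, 0.0384 and 0.0447). Arrays 19 and 21 are silwet arrays too, so there as well only the spread changed. AT5G03320 had a median signal of 19.8 in blocks 2 and 3, below the filter signal of 19.9, and 33.2 in block 1. It thus passed the filter with the help of block 1, and its calls are no support for a block difference.

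Among the pattern receptors, 3 of 17 listed were tested, and 1 rose in SA block 1. SD1-29, a lectin receptor kinase that senses bacterial 3-hydroxy fatty acids, had 169, 91.5 and 150 in SA block 1 and 38.7 to 60.2 in SA blocks 2 and 3, a difference of 1.35 (SE 0.250, limma adjusted p = 0.00620). In silwet arrays it had 64.2, 139 and 79.0 in block 1 and 46.6 to 78.4 in blocks 2 and 3, with a difference of 0.56 (limma adjusted p = 0.393). FER, the FERONIA receptor of RALF peptides, which scaffolds immune receptor complexes, differed by 0.36 in SA arrays (limma adjusted p = 0.219) and by 0.18 in silwet arrays (limma adjusted p = 0.754). EFR, the third, is described above. AT1G27190, the 1 tested member of 8 on the list of co-receptors and BIR proteins, was the only one of the 23 with a negative value besides EFR in silwet arrays, at -0.33 in SA arrays (limma adjusted p = 0.128) and -0.17 in silwet arrays (limma adjusted p = 0.677).

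Of the receptor-like cytoplasmic kinases, 6 of 17 were tested, and BIK1 and AT3G09830 rose in SA block 1. AT3G09830 had 348, 135 and 337 in SA block 1 and 76.6 to 153 in SA blocks 2 and 3, a difference of 1.22 (SE 0.344, limma adjusted p = 0.0340), and its 0.59 in silwet arrays was not called (limma adjusted p = 0.535). APK1A, a kinase of the BIK1 family, differed by 0.55 in SA arrays (limma adjusted p = 0.108) and 0.43 in silwet arrays (limma adjusted p = 0.475). The other 3, AT5G47070, AT1G76360 and AT5G03320, had values of 1.11, 0.98 and 0.94 in SA arrays (limma adjusted p from 0.0600 to 0.0609) and 0.63, 0.23 and 0.75 in silwet arrays (limma adjusted p from 0.373 to 0.820). By its median, AT5G03320 lay below the filter signal in blocks 2 and 3, as given above. BIK1 was the 1 kinase of the 6 called in silwet arrays.

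The list of regulators of BIK1, of receptor turnover and of the damping of pattern-triggered immunity had 4 tested members of 14. Of these 4, PUB23 and PUB24 rose in SA block 1. PUB23, one of a trio of U-box ubiquitin ligases that dampen pattern-triggered immunity, had 174, 195 and 204 in SA block 1 and 19.1 to 49.5 in SA blocks 2 and 3, a difference of 2.56 (SE 0.300, limma adjusted p = 0.000404). In silwet arrays PUB23 had 99.0, 261 and 136 in block 1 and 28.0 to 49.0 in blocks 2 and 3, a difference of 2.06 (SE 0.300, limma adjusted p = 0.00393). Every array of block 1 was above every array of the other blocks, as for BIK1. PUB24, its close relative, rose by 1.45 in SA arrays (SE 0.342, limma adjusted p = 0.0183), and its 0.92 in silwet arrays was not called (limma adjusted p = 0.300). PUB22, the third of the trio, was too dim to be tested, with 19.0 to 68.5 in block 1 and 1.37 to 13.4 in blocks 2 and 3.

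PUB26, a ubiquitin ligase that marks inactive BIK1 for degradation, differed by 0.41 in SA arrays (limma adjusted p = 0.204) and 0.44 in silwet arrays (limma adjusted p = 0.456). AT3G12620 differed by 0.88 in SA arrays (limma adjusted p = 0.0622) and 0.67 in silwet arrays (limma adjusted p = 0.395). In the list of endoplasmic reticulum quality control, which EFR needs for folding, 2 of 12 were tested. ATERDJ3B, a co-chaperone of the complex that EFR requires to accumulate, had 924, 690 and 1042 in SA block 1 and 390 to 581 in SA blocks 2 and 3, a rise of 0.93 (SE 0.217, limma adjusted p = 0.0174). In silwet arrays its difference of 0.48 was not called (limma adjusted p = 0.404). CRT1b, a calreticulin, differed by 0.62 in SA arrays (limma adjusted p = 0.0524, called under the other settings named above) and 0.20 in silwet arrays (limma adjusted p = 0.721).

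Genes known to be induced by pattern recognition had 4 tested members of 20, and 2 rose in SA block 1. WRKY53, a transcription factor of defence and senescence, had 715, 146 and 511 in SA block 1 and 55.6 to 122 in SA blocks 2 and 3, a rise of 2.13 (SE 0.454, limma adjusted p = 0.0118), while its 1.20 in silwet arrays was not called (limma adjusted p = 0.312). AT1G26380 rose by 2.14 in SA arrays (SE 0.373, limma adjusted p = 0.00455) and by 1.78 in silwet arrays (SE 0.373, limma adjusted p = 0.0363), with 76.3 to 237 in block 1 and 20.8 to 56.9 in blocks 2 and 3. STZ, a zinc finger repressor of stress responses, and WRKY22, a transcription factor downstream of MAP kinases, had values of 1.52 and 0.71 in SA arrays (limma adjusted p = 0.0606 and 0.171) and 1.17 and 0.83 in silwet arrays (limma adjusted p = 0.387 and 0.373).

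Of the SA pathway, 3 of 21 were tested, and 2 rose in SA block 1. UGT76B1, a glucosyltransferase that inactivates SA, had 1238, 41.2 and 1552 in SA arrays 28, 29 and 30, against 39.3, 1540 and 77.6 in silwet arrays 19, 20 and 21, and at most 76.8 in blocks 2 and 3. Its block difference in SA arrays was 4.40 (SE 1.09, limma adjusted p = 0.0212), and the 2.87 in silwet arrays was not called (limma adjusted p = 0.312). GRX480, a glutaredoxin partner of TGA factors, had 613, 167 and 701 in SA arrays 28, 29 and 30, against 102, 733 and 192 in silwet arrays 19, 20 and 21. Its block difference was 1.93 in SA arrays (SE 0.519, limma adjusted p = 0.0291) and 0.89 in silwet arrays (limma adjusted p = 0.534). Both genes, like BIK1 and EFR, were highest in arrays 28, 30 and 20 of block 1. SAG101, a partner of EDS1 in immunity, differed by 0.55 in SA arrays (limma adjusted p = 0.171) and 0.12 in silwet arrays (limma adjusted p = 0.894).

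In the SA minus silwet comparison of block 1 the same 23 genes had a median of 0.32 against -0.04 over all tested probe sets, 22 of 23 were positive, and 0 were called. Without replicate number 2, 9 of the 23 were called higher (background 3.66% higher), and without arrays 20 and 29, 11 were (background 5.93% higher). These counts rest on the same pair of arrays as the values of BIK1 and EFR above.

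**Figure D5:**
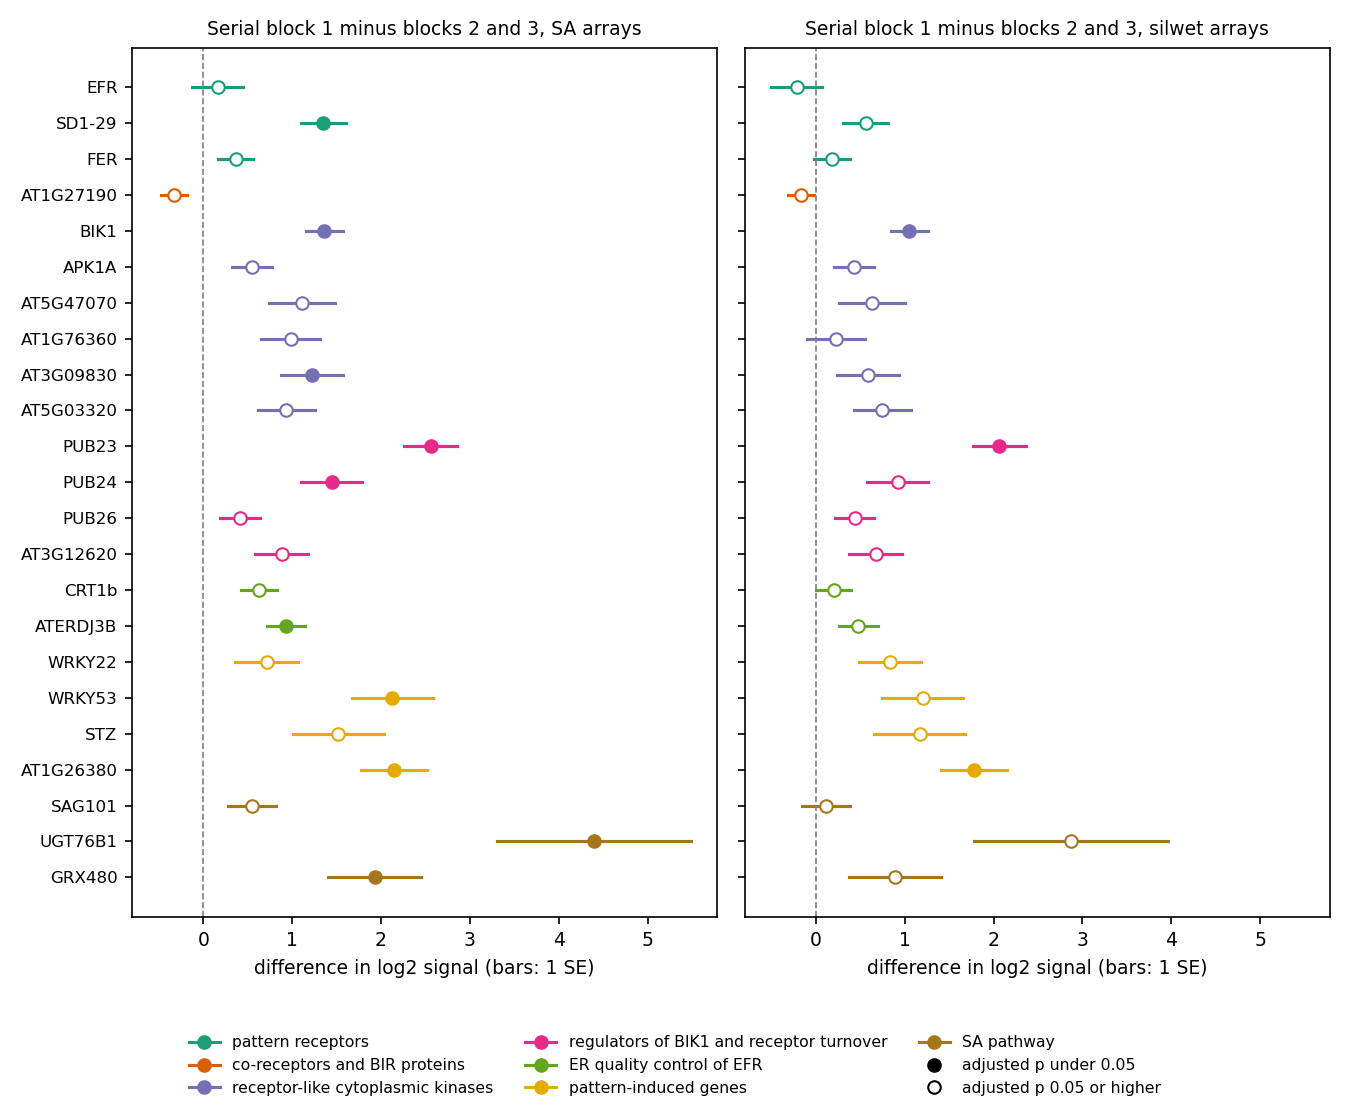
Serial block 1 minus blocks 2 and 3 in log2 signal for the 23 tested genes of the pathway lists, in SA arrays (left) and silwet arrays (right), with bars of 1 SE, colours for the lists and filled circles for limma adjusted p under 0.05. In SA arrays 10 circles are filled and in silwet arrays 3 (BIK1, PUB23 and AT1G26380), and EFR lies at 0.16 and -0.21.

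The genes most like each member were found by the Pearson correlation of log2 signal over the 18 arrays, among probe sets with 1 named gene, and are given as a description. Those most like BIK1 were AT4G20830 (r = 0.976), AT2G32030 (r = 0.964), AT1G74360 (r = 0.963), AT3G57450 (r = 0.963) and BZIP60 (r = 0.962), the last a transcription factor of the unfolded protein response. Over the 12 arrays of blocks 2 and 3 alone these were 0.665, 0.541, 0.760, 0.432 and 0.669, all lower than over the 18 arrays. Over the 15 arrays without 20, 28 and 30 they were 0.934, 0.925, 0.906, 0.872 and 0.900.

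Those most like EFR were TOPP7, a type 1 protein phosphatase (r = 0.866), AT1G03210 (r = 0.857), AT1G15420 (r = 0.836), LOJ (r = 0.832) and AT3G26440 (r = 0.827). Over the 12 arrays of blocks 2 and 3 they were 0.771, 0.789, 0.837, 0.651 and 0.479, and over the 15 arrays without 20, 28 and 30 they were 0.828, 0.795, 0.790, 0.802 and 0.752. The 5 genes most like EFR and the 5 most like BIK1 had no gene in common. With 5 taken for each from 7342 tested probe sets with 1 named gene, that says little about the members. All arrays share one scaling and the treatments share blocks, so these correlations carry no p.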

How the data were processed

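RNA of 18 samples was measured on ATH1 arrays. The authors' deposited values are linear signal intensity, 1 value for each probe set and array. Per the submitters' processing notes they come from MAS5, of a version the sources used here do not give. All arrays share one trimmed mean, and 0 columns lack a sample. From these, log2 of the intensity was taken with no pseudocount, 64 control probe sets were left out, and the 13648 of 22746 others with a mean log2 signal at or above the 40th percentile (signal 19.9) were tested. Genes were named where GEO's platform annotation gave 1 gene (13513 probe sets, with 503 listing several and 8730 unlisted here), by RefSeq symbol. limma 3.58.1 in R 4.3.3 (lmFit, eBayes with an intensity trend) was fitted to 6 groups of treatment and serial block, checked on simulated data, with Benjamini-Hochberg adjustment. Named are BIK1, EFR, list members called or of high signal, and the 5 genes most correlated with each. The members, lists, and arrays left out were chosen with earlier results of these data known. Alternatives were scaling, pseudocount, filter, trend, array weights, replicate blocks, treatment alone, and leaving arrays out. The number of arrays, 3 per treatment and block, limits precision. No sequences were used here.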

Additional observations from a re-analysis of the deposited data

Results flagged for a closer look

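For each of the 23 tested genes of the pathway lists, 8 groups of arrays were examined (2 treatments, 3 serial blocks and 3 replicate numbers), and an array was singled out when its gap to the nearest other array, as a share of the group's range in log2 signal, passed Dixon's 95% critical value. This happened in 30 of 184 groups, 15 of them through array 20. Chance alone gives about 1 in 20 groups, and the groups reuse the same arrays and genes that move together, so these cases are not independent. BIK1 had none.

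EFR had 1, with array 29 (SA, block 1) lowest of the 6 arrays numbered 2 at a signal of 25.2 and a gap share of 0.668.

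Array 20 (silwet, block 1) was the highest of the 9 silwet arrays for SD1-29 (0.517), AT5G03320 (0.499), AT3G12620 (0.612), CRT1b (0.507), UGT76B1 (0.600) and GRX480 (0.637), and the lowest of them for AT1G27190 (0.524). It was the highest of the 6 arrays numbered 2 for AT5G47070 (0.737), AT1G76360 (0.793), AT3G09830 (0.659), AT5G03320 (0.671), AT3G12620 (0.852), STZ (0.705), UGT76B1 (0.660) and GRX480 (0.812).

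Array 28 (SA, block 1) was the highest of the 6 arrays numbered 1 for SD1-29 (0.629), PUB24 (0.665), AT3G12620 (0.770), ATERDJ3B (0.690), WRKY53 (0.664) and UGT76B1 (0.748). Array 30 (SA, block 1) was the highest of the 6 arrays numbered 3 for SD1-29 (0.644), AT3G12620 (0.762) and GRX480 (0.636), and the highest of the 9 SA arrays for WRKY22 (0.515).

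The remaining cases lay outside block 1. Array 34 (SA) was the lowest of block 3 for FER (0.638) and AT1G76360 (0.669), array 35 (SA) was the highest of block 3 for AT1G27190 (0.870), and array 22 (silwet) was the highest of block 2 for WRKY53 (0.713).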

How the results depend on the processing

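The SA minus silwet difference of BIK1, near 0 in all, was 0.00997 after quantile normalization, 0.0327 after median centring, 0.0239 with array weights and 0.15 without arrays 20 and 29. Array weights also gave EFR 0.0231 for SA minus silwet in block 3 and -0.00219 for block 3 minus block 2, 1 call each for SA in block 2 and for its difference between blocks, 3607 calls for block 1 minus blocks 2 and 3 (the block difference) in SA, 1605 (8 on the lists) in silwet, and in block 1 SA minus silwet -0.19 for FER and -0.21 for WRKY22. For the block difference in silwet they gave AT1G76360 -0.0182. The filter at the 60th percentile left 49 calls in silwet and 378 for replicate numbers. Deviations of same-numbered arrays had correlations of 0.031 to 0.664 in blocks 2 and 3, all positive, and of 0, -0.697 and 0.12 in block 1. The main fit leaves the number out. With the number as a replicate block the silwet calls were 150, against 84. In that fit BIK1 kept its calls for the block difference (limma adjusted p = 0.00286 in SA arrays and 0.0281 in silwet arrays).

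Without arrays 20 and 29, calls numbered 2074 for SA in block 1 (11 on the lists), 321 for its difference between blocks, 4768 (18) for the block difference in SA, 21 (1) in silwet and 1464 for replicate numbers, with BIK1 at 0.67 for SA in block 1 and 0.78 for the block difference in silwet. Without arrays 20, 28 and 30, BIK1 was 0.96 in SA and 0.78 in silwet for the block difference, EFR was -0.14 for SA minus silwet, -0.22 in block 1 and -0.60 for the block difference in SA, and calls were 1 for SA in block 2, 1 for its difference between blocks, 21 (1) and 20 (0) for the block difference in SA and silwet. There the SA difference in block 1 was -0.35 for AT5G47070, -0.0738 for AT3G09830, -0.00429 for AT5G03320, -0.27 for AT3G12620, -0.35 for WRKY22, -0.40 for WRKY53, -0.53 for STZ, -0.54 for AT1G26380 and -0.42 for UGT76B1, and the block difference in SA was -0.0634 for AT5G47070 and -0.0132 for AT3G12620. Under both omissions the silwet block difference was -0.15 for AT1G76360, -0.00946 for CRT1b and -0.13 for SAG101.

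Leaving out 1 array or 1 replicate number gave BIK1 -0.12 to 0.15 for SA minus silwet, -0.0699 to 0.67, -0.24 to 0.0136 and -0.19 to 0.00817 in blocks 1, 2 and 3, and 1.13 to 1.58 in SA and 0.78 to 1.31 in silwet for the block difference. EFR ran over -0.16 to 0.19, then -0.19 to 0.91, -0.37 to 0.0136 and -0.18 to 0.0647 in the blocks, -0.16 to 0.66 in SA, -0.48 to 0.0719 in silwet and -0.0789 to 0.15 for block 3 minus block 2. Calls ran over 0 to 1129 for SA in block 1 (0 to 9 on the lists), 0 to 1 in block 2, 0 to 77 for its difference between blocks, 0 to 4301 (0 to 16) and 0 to 176 (0 to 3) for the block difference in SA and silwet, and 0 to 1362 for replicate numbers. Signs also changed for SA in block 1 in AT1G26380 -0.15 to 0.90, AT1G27190 -0.25 to 0.0177, AT1G76360 -0.11 to 1.01, AT3G09830 -0.0663 to 1.27, AT3G12620 -0.26 to 1.08, AT5G03320 -0.30 to 0.88, AT5G47070 -0.0131 to 1.41, CRT1b -0.00207 to 0.35, FER -0.19 to 0.22, GRX480 -0.13 to 2.23, PUB26 -0.11 to 0.51, STZ -0.23 to 1.67, UGT76B1 -0.45 to 4.65, WRKY22 -0.43 to 0.48 and WRKY53 -0.23 to 1.66, and for the block difference in silwet in AT1G76360 -0.15 to 0.46, CRT1b -0.0424 to 0.34 and SAG101 -0.20 to 0.49. The cause was not tested. Single list genes gained a call 64 times and lost one 60 times over all settings. With array weights, AT5G47070, AT1G76360, AT5G03320, AT3G12620 and STZ gained one for the block difference in SA (limma adjusted p from 0.00477 to 0.0272), and FER, PUB24, WRKY22, WRKY53 and STZ in silwet (limma adjusted p from 0.00838 to 0.0492). Another 1770 values of single list genes and 803 of BIK1, EFR and the counts kept their direction and call or, for counts, moved by at most 1.5 times.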
